A study of Homo sapiens with 9 samples.

Results

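In T47D-PA5 cells, 163 genes gave a higher microarray signal than in both other lines of the study, T47D-VC1 and T47D-PA6. They were chosen by that difference. The rule took the authors' normalized table, averaged its log2 values over the 3 arrays of each line, and kept 1 probe per gene name. This was the probe with the highest mean over the 9 arrays among those that the scanner software marked well above background on all 3 T47D-PA5 arrays. A gene became a member when its T47D-PA5 mean lay at least 0.8 above T47D-VC1 and at least 0.8 above T47D-PA6 on the log2 scale. Of 43317 gene names on the array, 19154 had an eligible probe and 212 passed both limits. The rule left out 49 of these, 43 of them for a position on chromosome 1 past 145 megabases and 6 by name alone (KCNS3, BFSP2-AS1, CNTFR-AS1, KRT32, LINC00112 and TM4SF1-AS1). The differences of T47D-PA5 from the other lines are therefore given as a description, with counts of calls from which nothing is read. T47D-PA6 against T47D-VC1 is not a difference that the rule used, although it comes from the same T47D-VC1 and T47D-PA6 arrays. Just inside the limit lay FERMT1 with a smaller difference of 0.8006, MLC1 with 0.8019 and ANO2 with 0.806. Just outside lay ENST00000453395 with 0.7957, HDGFRP3 with 0.7953 and lnc-GARS-4 with 0.7926.

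T47D is an established human breast cancer cell line of luminal type. All 3 lines were transfected with a plasmid and kept under G418 selection: T47D-VC1 carried the empty vector, T47D-PA6 the full-length form of PTH-AS, a long noncoding RNA made downstream of the parathyroid hormone gene, and T47D-PA5 an incomplete PTH-AS that lacks part of its 5′ end. For each construct 1 selected line was used, with 3 arrays each, so a group stands for 1 line of cells. Nothing in the labels says that the arrays came from separate cultures, and p-values then measure only the spread between these arrays.

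Between 44.04% and 48.02% of the probes were well above background on an array. Replicate 1 of every line was scanned in an earlier run on slide 1, and replicates 2 and 3 in a later run on slides 2 and 3. All 15 luminal epithelial markers examined were well above background on all arrays of each line. Of 9 fibroblast or mesenchymal markers, ZEB1, DCN, LUM and FAP stayed at background throughout (that is, not well above it, here and below), and THY1 was itself a member. Of 5 endothelial markers 2 were well above background on all arrays of each line, and PECAM1, KDR and TIE1 on no array. Of 4 leukocyte markers on the array this held for 3, with CD3E detected on none, and of 7 basal markers for 4, with TP63 detected on none. The summed basal signal was 1960 to 2660 in T47D-VC1, 3570 to 3920 in T47D-PA5 and 3310 to 3690 in T47D-PA6, and its part in the results was not tested. The probe for PTH also stayed at background on all 9 arrays.

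The members held adhesion proteins, secreted factors, receptors, enzymes, transcription factors and genes of the germ line. Cadherins hold neighbouring cells together at their membranes, claudins seal tight junctions between epithelial cells, and connexins form the channels of gap junctions. Cancer-testis antigens are genes whose expression is normally limited to germ cells and placenta and which some tumours express. Imprinted genes are expressed mainly from 1 parental copy, under the control of DNA methylation marks that differ between the copies.

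Most members were dim genes. Their median normalized signal over the 9 arrays was 37.2, against 451 for the 17494 eligible genes that the rule did not leave out. In T47D-PA5 alone the medians were 86.6 and 449. The members' mean T47D-PA5 signals ranged from 17.6 to 93000. Well above background on all 9 arrays were 84 members, or 51.5%, against 95.2% of the eligible genes. In T47D-VC1, 34 members were not well above background on any array, and in T47D-PA6 this held for 23. For 13 members it held for both lines, so they were measured in T47D-PA5 only. In a culture, fewer cells that express a gene and less RNA per cell cannot be told apart.

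**Figure D1:**
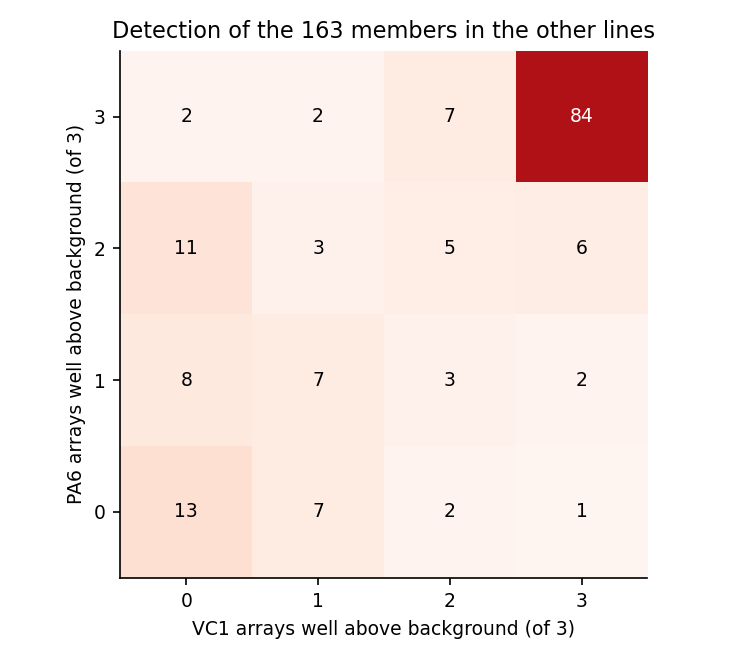
Number of the 163 members by how many of the 3 T47D-VC1 arrays (x axis) and how many of the 3 T47D-PA6 arrays (y axis) were well above background. The 84 members at the top right were detected on every array, and the 13 at the bottom left on none outside T47D-PA5.

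The differences that chose the members had a median of 1.44 against T47D-VC1 and 1.39 against T47D-PA6 on the log2 scale, in values normalized here from the scanner files. The smaller of both differences was 2 or more in 13 members, between 1 and 2 in 94 and under 1 in 56. All 3 T47D-PA5 arrays lay above all 6 other arrays in 127 of the 163 members, while 5.06% of the 20098 genes tested did so. The limma fit called 51 members higher in T47D-PA5 than in T47D-VC1, where 1.37% of all genes were called. It called 89 members higher than in T47D-PA6, where 6.06% were called, and 39 higher than in both (59 with the replicate number as a block), where 0.468% were called. Nothing is read from these 4 counts against their backgrounds, since the rule selected the members on the same values. The arrays of a line spread more for the members than for other genes. The median SD was 0.30 in T47D-PA5, 0.48 in T47D-VC1 and 0.50 in T47D-PA6, against 0.14, 0.17 and 0.17 for the eligible genes.

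**Figure D2:**
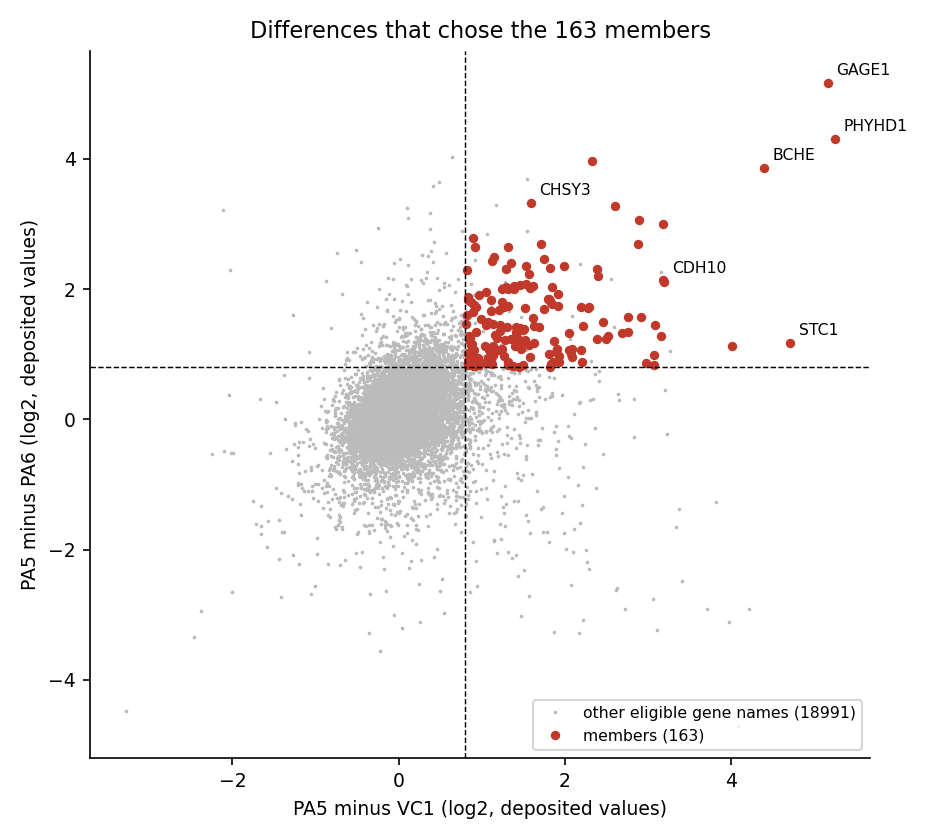
Mean log2 difference of T47D-PA5 from T47D-VC1 (x axis) and from T47D-PA6 (y axis) in the deposited table, for the 163 members (red) and the other eligible gene names (grey), which include those that the rule left out. Dashed lines mark the limit of 0.8 in both directions, and GAGE1, PHYHD1 and BCHE lie farthest from it.

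The differences that chose the members came from both scan runs, so the values within each run describe the same selection and are no separate test of it. In the earlier run, with 1 array a line, 149 of 163 lay above both other lines, and 109 were past both limits. In the later run, with 2 arrays a line, 161 lay above both lines and 130 were past both limits. The median difference from T47D-VC1 was 1.60 in the earlier run and 1.49 in the later, and that from T47D-PA6 was 1.30 and 1.40. Above both lines in both runs were 147 members. The number of members depended on the background correction and on single arrays. With normexp correction, which adds an offset of 50 and so compresses dim signals, 39 genes passed the rule, all 39 of them among the 163. Leaving out replicate 1 of T47D-PA5 raised the number to 252, of which 141 were members. In every one of the 9 lists made without 1 array, 92 members (56.4%) were present.

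**Figure D3:**
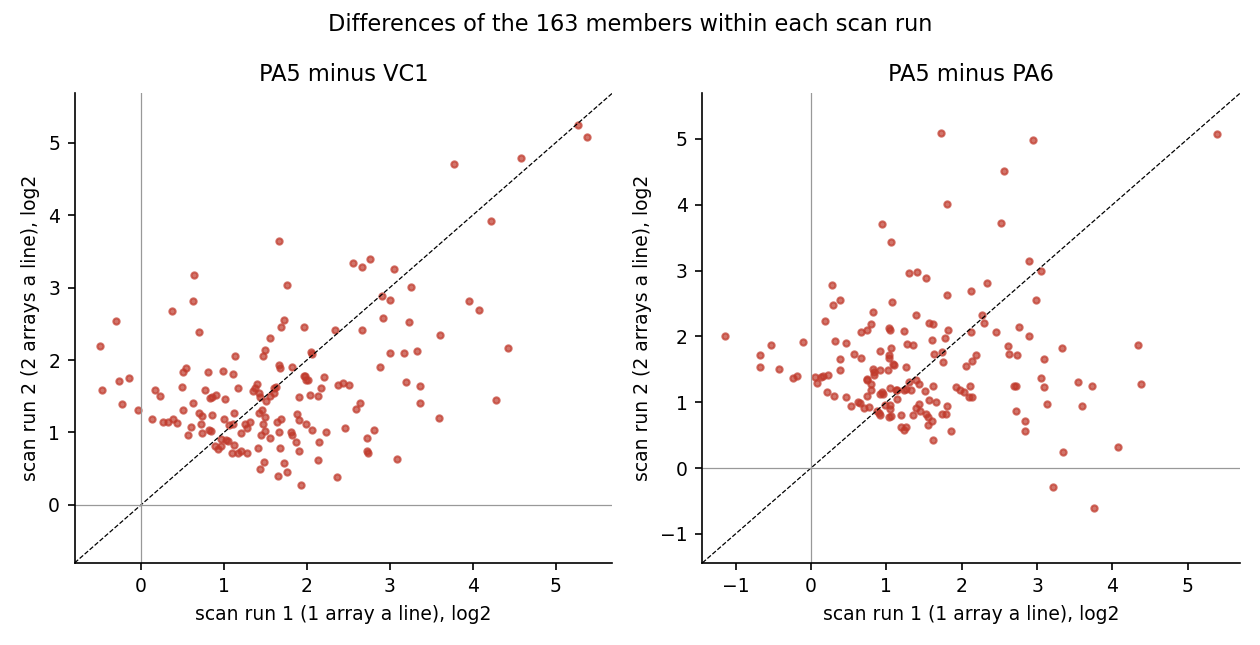
Log2 difference of each of the 163 members from T47D-VC1 (left) and from T47D-PA6 (right), in the earlier scan run (x axis) and in the later (y axis); the dashed line marks equal values. Most points lie above 0 in both runs, and the 14 members not above both lines in the earlier run include CHSY3, UGT2B15 and MLC1.

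The adhesion and junction group held 12 members, and in all 12 the T47D-PA5 arrays lay above the other 6. The same held for 77.9% of all members and 5.06% of all genes tested. Nothing is read from this count, since the rule chose the members on these values. CDH10, a classical cadherin of the nervous system, had the highest smaller difference among members detected on all arrays. Its signal was 1540, 841 and 840 on the T47D-PA5 arrays, 98.5, 118 and 122 in T47D-VC1, and 250, 217 and 248 in T47D-PA6. The 3 lines did not overlap and T47D-PA6 lay between the others. The log2 difference was 3.19 ± 0.23 (SE) from T47D-VC1 and 2.11 ± 0.23 from T47D-PA6, and T47D-PA6 exceeded T47D-VC1 by 1.08 ± 0.23 with an adjusted p of 0.023 (limma). PCDH19, a protocadherin, read 64.8, 38.3 and 37.9 in T47D-PA5, while its values in the other lines ran from 9.07 to 30.3. Of 34 genes of the CDH and PCDH number series on the array 13 were tested, and CDH10 and PCDH19 were the members.

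CLDN1, a tight junction claudin, read 4860, 2290 and 2180 in T47D-PA5. In T47D-VC1 it read 694, 1080 and 1110, and in T47D-PA6 732, 676 and 691. Its replicate 1 stood above the later 2 in T47D-PA5 and below them in T47D-VC1. The lowest T47D-PA5 array was still above the highest of the others. CLDN16, another claudin, lies beside it on chromosome 3, and its 3 T47D-PA5 arrays read 18.5, 15.6 and 20. For CLDN16 all arrays of T47D-VC1 and T47D-PA6 were at background, so T47D-PA5 was at least 1.44-fold higher than T47D-VC1 and at least 1.53-fold higher than T47D-PA6. Such a bound divides the mean of the bright line by the mean of the dim one, after each dim array was raised to at least the lowest signal called well above background there. Among 12 claudins tested of 23 on the array, CLDN1 and CLDN16 were the members, and the median claudin differed by -0.01 from both lines.

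GJB5 encodes a connexin expressed in skin and placenta. GJB5 read 66.9, 89.8 and 81.0 in T47D-PA5 and 10.5, 21.3 and 11.9 in T47D-VC1, where 1 of 3 arrays was well above background. In T47D-PA6 it read 26.7, 35.0 and 40.2, higher than in T47D-VC1 by 1.27 ± 0.27 (adjusted p = 0.025, limma), so that the 3 lines stood in separate ranges.

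Other members of the group act in cell guidance and attachment. ROBO2, a receptor for Slit guidance cues, read 81.2, 73.2 and 57.6 in T47D-PA5 and at most 37.0 elsewhere. A second ROBO2 probe differed by 1.77 from T47D-VC1 and 1.80 from T47D-PA6. BOC, a co-receptor for Hedgehog ligands, read 85, 54.2 and 59.2 in T47D-PA5, 45.7, 33.4 and 31.4 in T47D-VC1, and 18.6, 20.8 and 14.3 in T47D-PA6. It was thus lower in T47D-PA6 than in T47D-VC1, with a difference of -1.04 ± 0.22 (adjusted p = 0.025, limma). THY1, a surface glycoprotein that also serves as a marker of fibroblasts, read 575, 151 and 200 in T47D-PA5. It read 94.9 to 130 in T47D-VC1 and 46.3 to 93.0 in T47D-PA6. The 9 fibroblast or mesenchymal markers summed to 234 to 633 in T47D-PA5, 144 to 182 in T47D-VC1 and 246 to 267 in T47D-PA6. These sums hold THY1, which the rule chose for being high in T47D-PA5, so nothing is read from the T47D-PA5 sum. The part of these markers in the results was not tested. CD109 and SSPN, membrane proteins of the cell surface, differed by 1.32 and 1.22 from T47D-VC1 and by 1.99 and 1.35 from T47D-PA6.

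**Figure D4:**
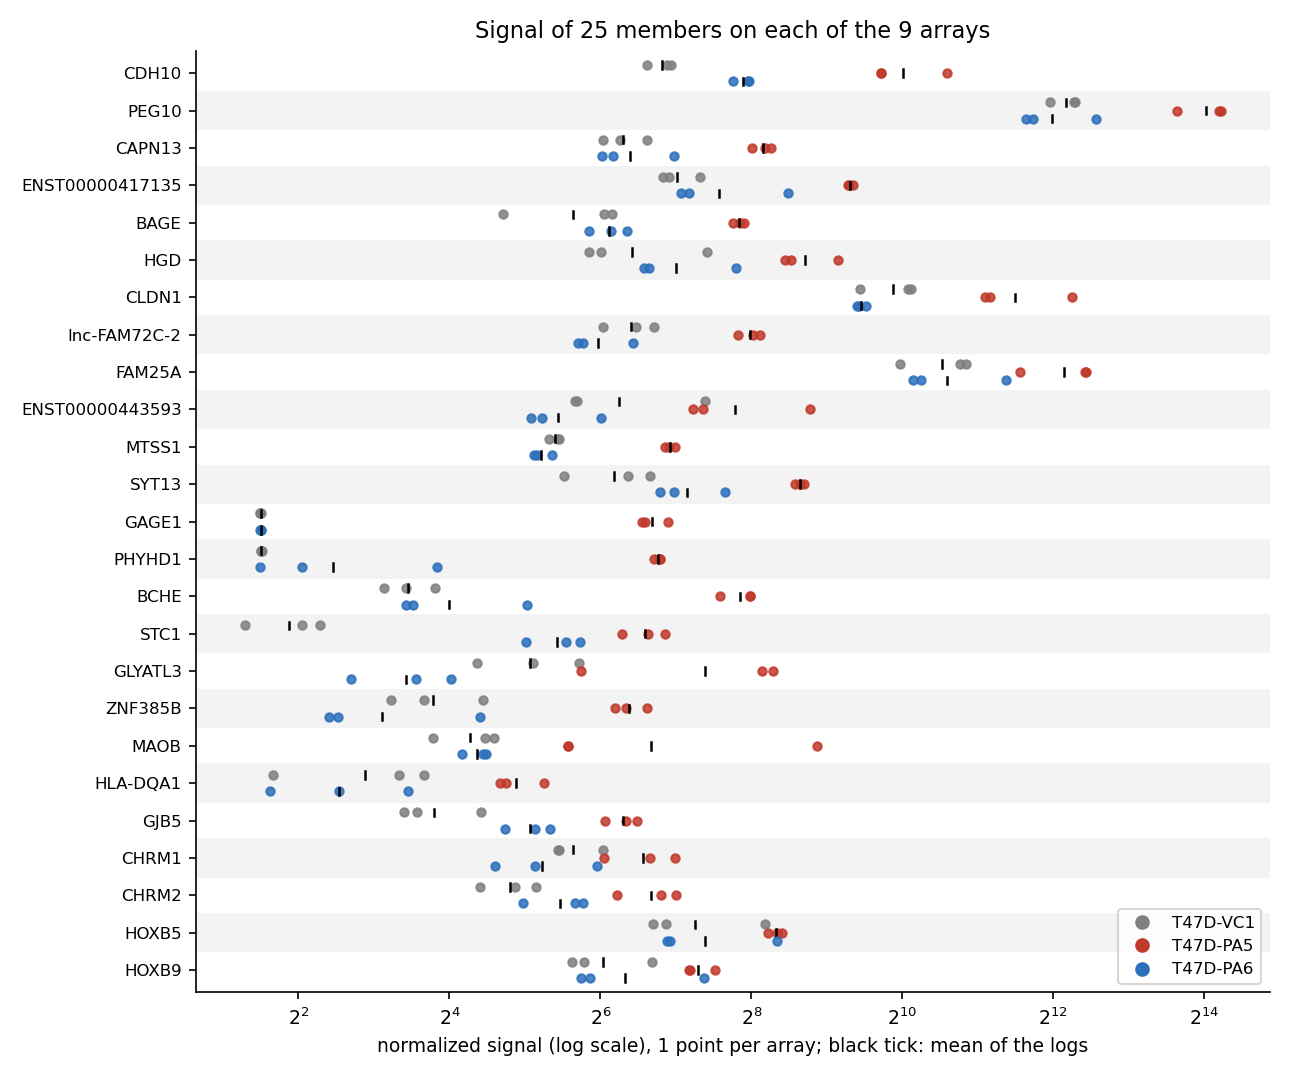
Normalized signal (x axis, log scale) of 25 members on each array, with T47D-VC1 in grey, T47D-PA5 in red and T47D-PA6 in blue, and a black tick at the mean of the logs of each line. The upper 12 are the members detected on all arrays with the highest smaller difference; in GAGE1 the red points lie between 93.5 and 119 while all others lie near 2.8, and in HOXB5 and HOXB9 the ranges overlap.

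The genes farthest from the limits were barely seen outside T47D-PA5. GAGE1, a cancer-testis antigen of the X chromosome, read 119, 96.8 and 93.5 in T47D-PA5. It read 2.84, 2.82 and 2.82 in T47D-VC1 and 2.84, 2.80 and 2.83 in T47D-PA6, below background on all 6 arrays. T47D-PA5 was thus at least 8.21-fold higher than T47D-VC1 and at least 8.83-fold higher than T47D-PA6. GAGE7, a gene of the same cluster, gave 90600, 92200 and 96200 in T47D-PA5. In T47D-VC1 it gave 38100, 43900 and 43600 and in T47D-PA6 36800, 37300 and 39400. The difference was 1.15 ± 0.09 from T47D-VC1 and 1.30 ± 0.09 from T47D-PA6, and T47D-PA6 minus T47D-VC1 was -0.14 ± 0.09 (adjusted p = 0.38, limma).

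GAGE genes are near-identical copies, and a probe may bind the RNA of several of them. The GAGE1 probe stayed at background in T47D-VC1 and T47D-PA6, where the GAGE7 probe gave 36800 to 43900. GAGE2B, the other GAGE gene tested, was no member and differed by 0.53 from T47D-VC1 and 0.47 from T47D-PA6. The GAGE1 and GAGE7 probes are different sequences, alike in 17 of 60 bases at the best ungapped position. RefSeq places the GAGE7 probe's accession in GAGE12F. The 250 bases before an annotated start of GAGE1 (chrX:49598770-49599019, GRCh38.p14, plus strand) and of GAGE12F (chrX:49560592-49560841) were alike in 250 of 250 bases. None of the 6 motifs searched lies within these bases, although an E-box was counted for both genes elsewhere in the windows searched. That shared promoter is printed because it shows how alike the copies are:
GAGE1 and GAGE12F: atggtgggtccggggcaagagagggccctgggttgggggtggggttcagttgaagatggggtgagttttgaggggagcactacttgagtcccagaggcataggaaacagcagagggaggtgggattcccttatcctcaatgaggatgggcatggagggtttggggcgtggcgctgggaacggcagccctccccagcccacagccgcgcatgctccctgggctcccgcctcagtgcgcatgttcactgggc

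BAGE, an antigen with several copies in the genome, read 240, 230 and 217 in T47D-PA5, 26.2, 71.5 and 66.1 in T47D-VC1, and 57.6, 81.9 and 70.7 in T47D-PA6. Its second probe differed by 3.45 from T47D-VC1 and 1.85 from T47D-PA6. THEG (now SPMAP2), a protein of spermatids, read 72.1, 75.5 and 74.7 in T47D-PA5 and from 16.5 to 41.0 elsewhere. MEIOB, which acts in meiotic recombination, differed by 0.88 ± 0.26 from T47D-VC1 and 1.80 ± 0.26 from T47D-PA6. Among 31 tested genes named as GAGE, BAGE, MAGE, XAGE, SSX and similar antigens, 4 were called higher and 2 lower in T47D-PA5 than in T47D-VC1. Against T47D-PA6 the counts were 4 higher and 6 lower, and the family's median differences were -0.01 and -0.20. Of the 31, 3 were members, chosen by the rule for being higher, so nothing is read from the higher counts. Over all genes tested, 1.37% were called higher in T47D-PA5 than in T47D-VC1 and 6.06% higher than in T47D-PA6. The shares called lower were not counted over all genes, so nothing is read from the lower counts either.

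BCHE, PHYHD1, HGD, MAOB and GLYATL3 led the 14 metabolic enzymes and carriers. PHYHD1, a dioxygenase, read 111, 111 and 105 in T47D-PA5, and no array of the other lines was well above background. The difference was at least 8.72-fold from T47D-VC1 and at least 9.39-fold from T47D-PA6. BCHE, the cholinesterase of plasma, read 192, 253 and 253 in T47D-PA5 and 14, 8.79 and 10.7 in T47D-VC1. In T47D-PA6 it read 32.5, 10.7 and 11.5, with 1 array well above background. T47D-PA5 was at least 17.8-fold higher than T47D-VC1, and the log2 difference from T47D-PA6 was 3.86 ± 0.40. HGD, which opens the ring of homogentisate in tyrosine breakdown, read 569, 348 and 367 in T47D-PA5, 171, 64.6 and 57.4 in T47D-VC1 and 223, 99.6 and 95.4 in T47D-PA6. In each line its replicate 1 was the highest, and within each scan run T47D-PA5 was the highest line.

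For MAOB, the mitochondrial oxidase of dopamine and phenethylamine, a single array carried much of the difference. T47D-PA5 read 466, 47.5 and 47.7, while T47D-VC1 read 24.0, 22.1 and 13.8 and T47D-PA6 22.4, 17.9 and 21.8. The later T47D-PA5 arrays still lay above all 6 others. GLYATL3, an acyltransferase of the glycine conjugation family, showed the opposite order, with 53.5 on replicate 1 and 283 and 311 on the later arrays. Its T47D-VC1 arrays read 34.4, 52.5 and 20.7, close to that first value. DGAT2, the last enzyme of triglyceride synthesis, read 131, 70.6 and 79.7 in T47D-PA5 and from 33.3 to 46.7 elsewhere. THRSP, a nuclear regulator of lipid synthesis genes, read 532, 847 and 830 in T47D-PA5, 165, 157 and 150 in T47D-VC1 and 194, 457 and 464 in T47D-PA6.

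RBP4, the plasma retinol carrier, overlapped between the lines, with 808, 336 and 323 in T47D-PA5 and 491, 165 and 141 in T47D-VC1. Replicate 1 was the highest array of RBP4 in all 3 lines, and within each run T47D-PA5 was the highest. UGT2B15, a glucuronidating enzyme with close copies that its probe may also bind, read 25.6, 16.6 and 34.4 in T47D-PA5 and overlapped with both lines. GSTA4, a glutathione transferase, read 541, 598 and 604 in T47D-PA5 and at most 401 elsewhere. Its second probe differed by 0.56 from T47D-VC1, short of the limit, and by 0.96 from T47D-PA6.

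Secreted factors made up 16 of the members, and in 10 of these all T47D-PA5 arrays lay above the other arrays. The same held for 77.9% of all members and 5.06% of all genes tested, so nothing is read from this count. STC1, a glycoprotein hormone that acts on calcium and phosphate handling, read 116, 78.2 and 98.7 in T47D-PA5 and 53, 32.4 and 46.6 in T47D-PA6. In T47D-VC1 all arrays were at background, with 4.86, 2.45 and 4.14. T47D-PA5 was at least 7.73-fold higher than T47D-VC1. IGF2, a growth factor expressed from the paternal copy, read 1330, 966 and 977 in T47D-PA5, 256, 328 and 292 in T47D-VC1 and 456, 569 and 573 in T47D-PA6, in 3 separate ranges. VEGFC, the growth factor of lymphatic vessels, read 82.1, 135 and 132 in T47D-PA5 and 20 to 53.8 in the other lines.

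SCUBE2, a secreted protein that helps release Hedgehog ligands, gave 6580, 3700 and 3620 in T47D-PA5. It gave 2300, 1360 and 1360 in T47D-VC1 and 3940, 1440 and 1410 in T47D-PA6, so the first T47D-PA6 array overlapped with the later T47D-PA5 arrays. NRIP3, a neighbour of SCUBE2 at chr11:9004799-9043471 (hg19, as all probe positions here), read 485, 604 and 570 in T47D-PA5 and 210 to 358 elsewhere. Another NRIP3 probe differed by 0.51 from T47D-VC1, short of the limit, and by 0.94 from T47D-PA6. A further probe differed by 0.94 and 0.96. APOD, a lipocalin that carries small lipophilic molecules, read 1330, 1520 and 1490 in T47D-PA5 and 372 to 1020 elsewhere. NPW, a neuropeptide precursor, read 770, 700 and 587 in T47D-PA5, 318, 430 and 355 in T47D-VC1 and 231, 183 and 195 in T47D-PA6. Here T47D-PA6 was lower than T47D-VC1, with a difference of -0.85 ± 0.16 (adjusted p = 0.014, limma). CXCL1, a chemokine for neutrophils, read 23.7, 17.1 and 20.9 in T47D-PA5, and all other arrays were at background, although the second T47D-VC1 array, at 17.7, lay above the lowest of T47D-PA5. The bounds were at least 1.51-fold and 1.76-fold.

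The cystatins, secreted inhibitors of cysteine proteases, gave 3 members of 9 tested. CST6 read 41.4, 38.5 and 46.1 in T47D-PA5 and 7.51, 17.3 and 23.5 in T47D-VC1, where 1 of 3 arrays was well above background. All T47D-PA6 arrays were at background, at least 3.53-fold lower than T47D-PA5. CST11 and CSTL1 have probes 6533 bases apart from end to end on chromosome 20. CSTL1 read 31.1, 62.7 and 61.9 in T47D-PA5 and 23.9, 27.3 and 27.3 in T47D-VC1. It was not well above background in T47D-PA6, so T47D-VC1 was at least 2.22-fold higher than T47D-PA6. The fit to all readings gave an adjusted p of 0.032 (limma), which does not test that bound. CST11 read 106, 156 and 149 in T47D-PA5, and its first T47D-VC1 array, at 128, overlapped with that range.

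Muscarinic receptors bind acetylcholine and signal through G proteins. CHRM1 read 127, 66.2 and 101 in T47D-PA5, 65.3, 43.3 and 43.7 in T47D-VC1 and 62.2, 24.4 and 35.0 in T47D-PA6. CHRM2 read 74.3, 128 and 112 in T47D-PA5, 21.1, 35.4 and 29.3 in T47D-VC1 and 31.4, 54.6 and 50.7 in T47D-PA6. The lowest T47D-PA5 value was above the highest of the other lines in both genes, by little in CHRM1. Of the 5 muscarinic receptors on the array 3 were tested, and the third, CHRM3, passed both limits with 1.54 and 1.07 but was left out for its position on chromosome 1. Phospholipase C, which some of these receptors switch on, gave 2 members of 12 tested. PLCE1 read 2530, 1920 and 1930 in T47D-PA5, 334, 297 and 351 in T47D-VC1 and 936, 789 and 810 in T47D-PA6, and its second probe differed by 2.5 and 1.30. PLCB2 read 48.7, 74.8 and 65.3 in T47D-PA5 and 13.8 to 37.3 elsewhere.

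Of the other receptors and transporters, SLC6A4, the serotonin transporter, read 58.5, 54.3 and 58.5 in T47D-PA5. T47D-VC1 read 11.4, 42.1 and 43.8, so its spread was wide, and T47D-PA6 read 24.4, 20.2 and 18.7. CNTFR, a receptor subunit for ciliary neurotrophic factor, read 44.5, 50.6 and 45.5 in T47D-PA5 and 10.9 to 35.8 elsewhere. The antisense probe CNTFR-AS1, left out by name, had differences of 3.26 and 1.05 in the deposited table. TM4SF1, a tetraspan membrane protein, read 906, 724 and 797 in T47D-PA5, 343, 236 and 243 in T47D-VC1 and 436, 418 and 397 in T47D-PA6. Its antisense probe TM4SF1-AS1 had differences of 1.47 and 1.57. SLCO3A1 and SLCO4C1, carriers of organic anions, were 2 of 4 tested members of their family, with differences from T47D-VC1 of 1.63 ± 0.46 and 1.71 ± 0.52. Each was well above background on 1 of 3 T47D-VC1 arrays and 1 of 3 T47D-PA6 arrays, so these differences rest partly on readings at background.

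PDE4B, a phosphodiesterase of cyclic AMP, read 69.8, 23.7 and 19.8 in T47D-PA5 and was not well above background in T47D-VC1, a difference of at least 2.56-fold. T47D-PA6 replicate 3, at 20.5, lay above the lowest T47D-PA5 array. CAMK2B, a calcium-dependent kinase of neurons, read 269, 187 and 181 in T47D-PA5 and 64.6 to 149 elsewhere. SYT13, a synaptotagmin of membrane traffic, read 415, 399 and 382 in T47D-PA5, 45.9, 101 and 82.3 in T47D-VC1 and 201, 111 and 126 in T47D-PA6. CAPN13, a calpain protease, read 257, 308 and 289 in T47D-PA5 and from 65.2 to 126 elsewhere, and its second probe differed by 2.04 and 1.87. MTSS1, which bends membranes and binds actin, read 127, 120 and 116 in T47D-PA5 and 34.9 to 43.7 in the other lines. FSCN1, an actin bundling protein, read 2320, 1470 and 1500 in T47D-PA5 and 562 to 1230 elsewhere.

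Transcription factors of developing tissues were among the members. INSM1, a repressor of neuroendocrine cells, read 634, 586 and 552 in T47D-PA5. Its T47D-VC1 arrays read 492, 101 and 78.9, and the first of these stood far above the other pair. POU3F2, of neural progenitors, read 89.2, 113 and 106 in T47D-PA5 and 25.2 to 64.6 elsewhere. PAX2, of kidney and Müllerian duct, read 171, 261 and 257 in T47D-PA5 and 67.0 to 149 elsewhere. ZNF385B, a zinc finger protein, read 73.4, 98.4 and 80.8 in T47D-PA5 and 5.29 to 21.7 elsewhere. It was well above background on 1 of 3 T47D-VC1 arrays and 1 of 3 T47D-PA6 arrays. HOXB5 and HOXB9, homeobox genes of 1 cluster at chr17:46668806-46698674, read 338, 298 and 325 and 183, 145 and 146 in T47D-PA5. In both genes replicate 1 of T47D-VC1 and of T47D-PA6 was high, at 289 and 325 for HOXB5 and 103 and 166 for HOXB9, and the T47D-PA6 array overlapped with T47D-PA5. The limma fit called none of the 7 tested HOXB genes at an adjusted p under 0.05 in any of the 3 comparisons.

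Of 17 tested imprinted genes PEG10, IGF2 and ZDBF2 were members. PEG10, derived from a retrotransposon and expressed in placenta, read 12700, 19100 and 18800 in T47D-PA5, 3980, 5010 and 4950 in T47D-VC1 and 6050, 3200 and 3400 in T47D-PA6. SGCE, which shares its promoter region with PEG10, differed by 0.25 from T47D-VC1 and 0.22 from T47D-PA6. For H19, the noncoding neighbour of IGF2, T47D-PA5 minus T47D-PA6 was -0.40, with an SD of 1.18 over the T47D-PA6 arrays. ZDBF2 read 48.0, 89.8 and 87.2 in T47D-PA5, 17.3, 20.9 and 21.8 in T47D-VC1 and 34.6, 44.4 and 39.2 in T47D-PA6. The median over the imprinted genes was 0.25 against T47D-VC1 and 0.05 against T47D-PA6.

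HLA-DQA1 and HLA-DQA2 encode alpha chains of class II antigen presentation and are close in sequence, so each probe may read both, although the probes are alike in 24 of 60 bases. HLA-DQA1 read 38.0, 25.4 and 26.8 in T47D-PA5 and was not well above background elsewhere, at least 2.37-fold and 2.55-fold lower. HLA-DQA2 read 127, 74.7 and 73.5 in T47D-PA5, 18.9, 41.6 and 48.6 in T47D-VC1 and 41.2, 14.7 and 17.9 in T47D-PA6. The beta chain genes HLA-DQB1 and HLA-DQB2 differed from T47D-VC1 by 1.97 and 1.84 but from T47D-PA6 by 0.37 and 0.35. In those beta chains T47D-PA6 exceeded T47D-VC1, by 1.60 and 1.49 with adjusted p of 0.022 and 0.030 (limma), and in HLA-DQA2 the same difference was -0.61 (adjusted p = 0.46). HLA-DQA1 was at background in both of these lines and gives no such difference.

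ASB9, a substrate receptor of ubiquitin ligases on the X chromosome, and its pseudogene ASB9P1 on chromosome 15 were both members. Their probes are alike in 54 of 60 bases, so the ASB9P1 signal may come from ASB9 RNA. Bases 25 to 54 of the probes are shown, with the 4 positions that differ in capitals:
ASB9: gacAttaacttatgtgatgaCttgatcGaG
ASB9P1: gacGttaacttatgtgatgaTttgatcAaA
ASB9 read 105, 100 and 100 in T47D-PA5, 38.6, 50.3 and 51.9 in T47D-VC1 and 41.4, 54.0 and 61.1 in T47D-PA6. ASB9P1 read 28.0, 29.7 and 25 in T47D-PA5 and 8.52 to 19 in the other lines. No other pair of member probes was alike in 40 or more bases.

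Probes with no gene symbol made up 35 of the 163 members, 10 of them detected on all arrays. ENST00000563602 and ENST00000567197, neighbours on chromosome 4, read 23.9, 46.5 and 36.1 and 22.2, 38.8 and 32.9 in T47D-PA5, and no array of the other lines was well above background for either. They were at least 2.74-fold and 2.44-fold higher than T47D-VC1. Their probes start 70 bases apart, so both may read 1 transcript.

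A separate question is whether the members also differed between the lines that the rule treats alike. Over the 163 members the median T47D-PA6 minus T47D-VC1 difference was 0.06, and over all genes tested it was -0.03. It lay within 0.5 of 0 in 84 members, above 1 in 23 and below -1 in 11, with fitted extremes of -1.89 and 3.55, the latter against arrays at background. The limma fit called 20 of the 163 members in this comparison, or 12.3%, where 10% of all 20098 genes were called. Higher in T47D-PA6 were 14 members, or 8.59%, where 4.69% of all genes were called. Lower were 6 members, or 3.68%, where 5.33% of all genes were called. The 13 members that were dim in both lines gave no call. The total share lay near that of all genes. The share called higher was above that of all genes, and the share called lower was below it. These differences in share were not tested, and the arrays behind them also served to choose the members.

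For STC1, lnc-WARS2-2, GUCA2B and SGPP2 all T47D-VC1 arrays were at background, so only bounds can be given. For STC1 the signal of T47D-PA6 exceeded that of T47D-VC1 at least 3.45-fold (adjusted p = 0.00052, limma). The bound was 1.58-fold for lnc-WARS2-2 (adjusted p = 0.0032, limma). For GUCA2B it was 1.52-fold (adjusted p = 0.030, limma) and for SGPP2 1.11-fold (adjusted p = 0.038, limma). These p-values rest on the readings themselves, those at background included, and do not test the bounds. In lnc-WARS2-2, GUCA2B and SGPP2 only 2 of 3 T47D-PA6 arrays were well above background. Measured in both lines were lnc-NAA35-1, with a difference of 2.24 ± 0.39 (adjusted p = 0.012), and another long noncoding transcript with 2.09 ± 0.24 (adjusted p = 0.0020). GUCA2B, the gut peptide uroguanylin, read 26.9, 39.8 and 38.2 in T47D-PA5 and 36.0, 14 and 13.4 in T47D-PA6, with overlap. SGPP2, a phosphatase of sphingosine phosphate, read 63.6, 25 and 24.3 in T47D-PA5 and 22.4, 9.23 and 12.9 in T47D-PA6. PLCE1 had the smallest error among the named genes called, 1.37 ± 0.14 (adjusted p = 0.0012). In these genes the line means stood in the order T47D-VC1, T47D-PA6, T47D-PA5. The rule and the call together fix that order, so nothing is read from it. For lnc-NAA35-1 the first T47D-PA6 array, at 1480, lay above all T47D-PA5 arrays, at 1250, 1270 and 1320.

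The 6 members lower in T47D-PA6 than in T47D-VC1 were CSTL1, ZNF521, BOC, ENST00000426870, FAM198A and NPW. ZNF521, a zinc finger factor of progenitor cells, read 37.2, 27.8 and 33.5 in T47D-PA5 and 24.1, 11.7 and 11.3 in T47D-VC1. It was not well above background in T47D-PA6, so T47D-VC1 was at least 1.27-fold higher (adjusted p = 0.049, limma). FAM198A (now GASK1A), a Golgi protein, read 1610, 1310 and 1310 in T47D-PA5, 895, 676 and 613 in T47D-VC1 and 470, 326 and 337 in T47D-PA6, the difference being -0.95 ± 0.19 (adjusted p = 0.020, limma). All 3 of its ranges were separate. ITM2A, a membrane protein of cartilage and T cells, had the lowest difference of all, -1.89 ± 0.50, with 1360, 856 and 727 in T47D-VC1 and 512, 150 and 217 in T47D-PA6. Its first T47D-PA5 array, at 985, lay within the T47D-VC1 range, and it was not called (adjusted p = 0.050, limma).

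**Figure D5:**
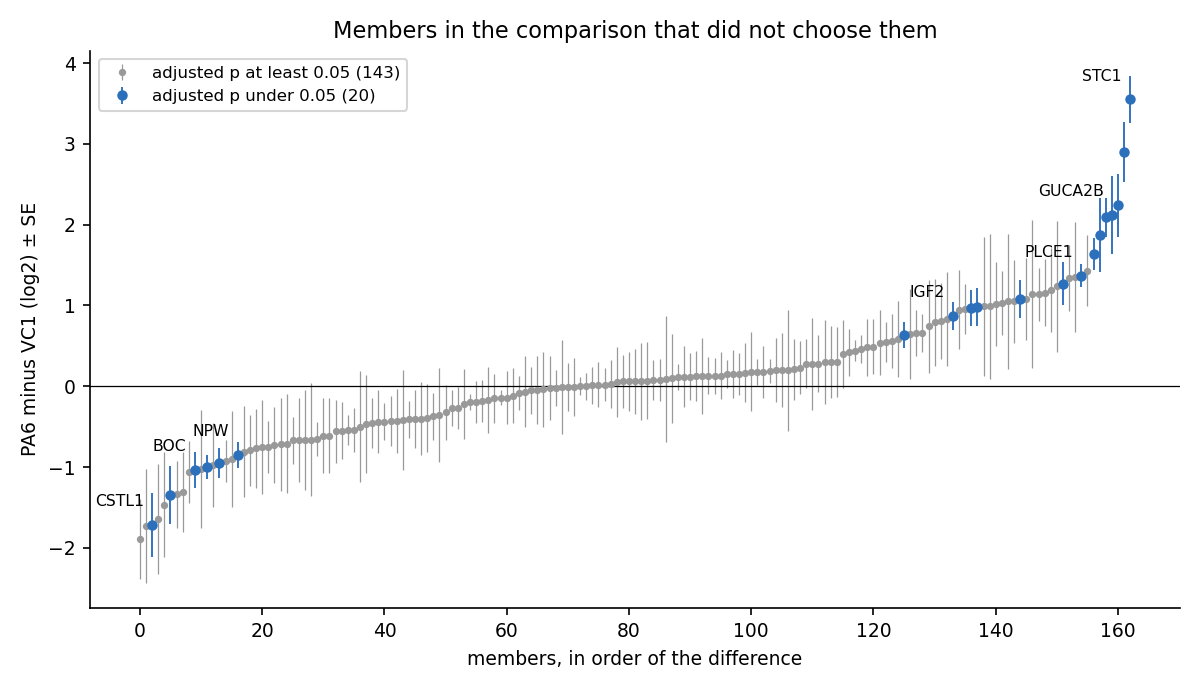
Log2 difference of T47D-PA6 from T47D-VC1 with its standard error (y axis) for the 163 members in order (x axis); blue points are the 20 called at an adjusted p under 0.05 by limma. Most members lie near 0, with a tail above 1 that ends at STC1.

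Positions of the members were spread over the genome. Members made up 1.82% of the eligible genes on chromosome X, 1.43% on chromosomes 4 and 5, and 0.408% on chromosome 19. Of 162 members with a mapped probe, 36 (22.2%) had another member within 1000000 bases, and 15.5% of the 17292 other eligible genes had a member that near. The 36 fell into 15 pairs and 2 groups of 3. Members that share a family and a place were CLDN1 with CLDN16, CST11 with CSTL1, HOXB5 with HOXB9, HLA-DQA1 with HLA-DQA2, and GAGE1 with GAGE7. Between HOXB5 and HOXB9 lie 3 other eligible genes, with medians of 0.11 from T47D-VC1 and 0.62 from T47D-PA6.

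Other neighbours belong to different families. RBP4, LGI1 and PLCE1 lie within 736324 bases at chr10:95351669-96087992. LGI1, a secreted protein of synapses, read 384, 103 and 102 in T47D-PA5, 131, 22.5 and 19.2 in T47D-VC1 and 198, 38.2 and 58.8 in T47D-PA6. Replicate 1 was by far its highest array in every line, so the lines overlapped, and within each run T47D-PA5 was the highest. CYFIP2, a regulator of actin, and ADAM19, a metalloprotease of the cell surface, lie at chr5:156822135-156904534. CYFIP2 read 52.7, 55.4 and 43.5 in T47D-PA5 and 11.9 to 29.5 elsewhere, and ADAM19 read 69.0, 26.1 and 23.6 in T47D-PA5 and 7.03 to 13.8 elsewhere. The 9 other eligible genes around them had median differences of -0.09 and -0.02. A second CYFIP2 probe differed by 0.79 from T47D-VC1 and 0.77 from T47D-PA6, both short of the limit.

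SYT13 and CHST1, a sulfotransferase of glycans, CAPN13 and GALNT14, which starts O-linked glycans, and GLYATL3 and C6orf141 were further pairs. CHST1 read 39.4, 51.0 and 59.4 in T47D-PA5, but its first T47D-PA6 array read 86.9. GALNT14 was not well above background in T47D-VC1, and T47D-PA5 was at least 2.05-fold higher. It read 25.6, 20.7 and 31.6 in T47D-PA5 and 2.52, 22.3 and 20.7 in T47D-PA6, with overlap. In the later scan run its difference from T47D-PA6 was 0.25. C6orf141 read 417, 562 and 468 in T47D-PA5, and 463 on the first T47D-VC1 array. CHSY3, a chondroitin synthase, read 32.7, 45.4 and 32.9 in T47D-PA5 and overlapped with the first T47D-VC1 array at 40.3; the neighbouring unnamed probe A_33_P3396339 did the same, with 17.6 as its T47D-PA5 mean. MEIOB with NPW, SLCO3A1 with ASB9P1, and SGPP2 with LOC102725407 complete the pairs, and ENST00000505930 is the third of the group on chromosome 4.

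In 53 of the 163 members the array held another probe of the same name, and in 23 of these another probe was well above background on all 3 T47D-PA5 arrays. Of those 25 probes 24 were above 0 in both differences and 18 were past both limits, but requiring detection in T47D-PA5 favours such probes. Of the 42 other probes, not well above background on every T47D-PA5 array, 26 were above 0 in both differences and 5 were past both limits. The 1 detected probe not above 0 in both was a second probe of HNMT, a histamine methyltransferase, with 1.68 against T47D-VC1 and -0.05 against T47D-PA6.

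Promoters were read for 87 members from RefSeq sequences (GRCh38.p14), as windows of 250 bases before to 50 after an annotated start, with 137 windows in all. Each motif was searched on both strands, and a gene counted when any of its windows held it. The TATA box TATAAA was found in 10.3% of the members' genes, 8.44% of the eligible genes and 14% of all genes in the table. The AP-1 motif TGANTCA was found in 11.5%, 6.88% and 9.37%, the GC box GGGCGG in 64.4%, 75% and 48.3%, and the E-box CACGTG in 6.90%, 12.6% and 8.77%. The interferon-stimulated response element was in 2 members, both of them muscarinic receptors, CHRM1 and CHRM2, that is 2.30% against 3.67% of eligible and 4.38% of all genes. The estrogen response element was in none of the members, and in 0.0290% and 0.0732% of the others. A match is a description of letters and not of binding.

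Upstream sequences of 4 members are shown, CDH10, BCHE and FAM25A for large differences or several motifs and CHRM1 for its interferon-stimulated response element. Each gives the 250 bases before the start, 5′ to 3′ on the gene's strand, with motif matches in capitals. CDH10 (chr5:24644979-24645228, minus strand) holds no match. In BCHE (chr3:165837424-165837673, minus strand) the capitals are an AP-1 match and a TATA box on the opposite strand. In FAM25A (chr10:87020044-87020293, plus strand) they are 2 GC boxes, an AP-1 match and a TATA box that begins 29 bases before the start. In CHRM1 (chr11:62921364-62921613, minus strand) they are the interferon-stimulated response element on the opposite strand.
CDH10: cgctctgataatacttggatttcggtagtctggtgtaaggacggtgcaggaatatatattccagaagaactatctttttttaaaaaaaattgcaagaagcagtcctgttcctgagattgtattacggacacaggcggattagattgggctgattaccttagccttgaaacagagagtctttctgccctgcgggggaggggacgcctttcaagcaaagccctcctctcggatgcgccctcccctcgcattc
BCHE: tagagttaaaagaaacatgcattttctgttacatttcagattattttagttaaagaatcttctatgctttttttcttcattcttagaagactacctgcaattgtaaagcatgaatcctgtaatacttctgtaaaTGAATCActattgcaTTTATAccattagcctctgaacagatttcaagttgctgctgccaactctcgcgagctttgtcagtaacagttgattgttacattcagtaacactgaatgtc
FAM25A: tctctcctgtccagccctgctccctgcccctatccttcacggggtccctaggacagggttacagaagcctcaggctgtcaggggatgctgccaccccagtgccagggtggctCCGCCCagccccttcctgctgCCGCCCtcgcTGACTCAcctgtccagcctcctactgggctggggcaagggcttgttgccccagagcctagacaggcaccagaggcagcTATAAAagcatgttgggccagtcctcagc
CHRM1: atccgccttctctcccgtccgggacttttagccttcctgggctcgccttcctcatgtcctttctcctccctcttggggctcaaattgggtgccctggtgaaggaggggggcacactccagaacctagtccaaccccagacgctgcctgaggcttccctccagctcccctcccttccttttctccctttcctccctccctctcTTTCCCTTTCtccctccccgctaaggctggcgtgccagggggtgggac
FAM25A, a small protein of no settled function, read 3030, 5530 and 5500 in T47D-PA5, 1000, 1840 and 1740 in T47D-VC1 and 2660, 1130 and 1220 in T47D-PA6. Its second probe differed by 1.67 and 1.65.

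Of 24 gene lists drawn up for breast cancer biology, 7 contained a member each: CXCL1, UGT2B15, GAGE1, CLDN1, ROBO2, IGF2 and PDE4B. The 21 tested interferon response genes held none. Their median was 2.21 above T47D-VC1 in T47D-PA5 and -2.48 against T47D-PA6, where the medians of all genes tested were -0.03 and 0.0. Called higher in T47D-PA5 than in T47D-VC1 were 11 of 21, where 1.37% of all genes were called. Called lower than in T47D-PA6 were 20 of 21, and the share over all genes was not counted. A gene lower in T47D-PA5 than in T47D-PA6 cannot pass the rule, so nothing is read from the absence of members. The 20 estrogen and progesterone response genes also held none, with medians of 0.01 and -0.01. The 20 cell cycle genes held none, with medians of 0.11 and 0.27.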

How the data were processed

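Gene expression in 9 samples was measured on 1-color Agilent arrays (SurePrint G3 Human v3). The authors deposited spot intensity values as Feature Extraction gave them (version 10.7.1.1 in the file headers, 9.5.1.1 in the labels), and a second table of intensity values that they had quantile-normalized between arrays, with 1 value per probe. The rule used the log2 of this table. For all other values, processed signals were taken to log2, outlier spots dropped, spots of a probe averaged, and arrays quantile-normalized, and a printed signal is 2 to the power of that value. On the arrays, the dimmest probes still called well above background had normalized signals of 9.59 to 15.2, and 3 arrays a line limit the precision. Lines were compared with limma 3.58.1 in R 4.3.3 (lmFit, eBayes) in 1 fit over all arrays with 6 residual degrees of freedom, over the 20098 genes with a probe detected above background on all 3 arrays of some line. Benjamini-Hochberg adjustment covered all 20098. A call is an adjusted p under 0.05. The fit was tested on simulated T47D-PA6 against T47D-VC1 data of 20083 genes. It recovered 60 of 100 changes of log2 size 1 and 95 of 100 of size 2, with 10 other genes called. The simulated noise was independent between arrays, without the shared deviations by replicate number given below, so these figures do not cover them.

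Named are the 12 members with the highest smaller difference among those detected on all arrays, the 6 highest among those detected in T47D-PA5 alone, up to 6 called in each direction in T47D-PA6 against T47D-VC1, members of the gene lists, members within 1000000 bases of another, and the genes nearest the limit. Others were chosen after their values were seen, as were the families and role groups. Members and lists were all chosen with earlier results of these data known. Gene symbols follow the files; RefSeq matched 129 members, 122 by symbol, 6 by accession and 1 by synonym. A few members are not reported by name here. RAB7B's probe has no position in the files, so the rule on chromosome 1 could not be applied to it. Alternatives were another normalization, background correction, table, filter, block, prior, test and threshold, and each array left out. Arrays with the same replicate number deviated together from their line means. Correlations were 0.1317 to 0.3379 between T47D-VC1 and T47D-PA6 and 0.1664 to 0.2745 between T47D-PA5 and T47D-PA6. Between T47D-VC1 and T47D-PA5 they were 0.0996 to 0.2105. Replicates 2 and 3 correlated best with their own number in some comparisons, such as replicate 3 of T47D-PA5 with both other lines, and not in others.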

Additional observations from a re-analysis of the deposited data

How the results depend on the processing

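The 163 members became 161 with values normalized here, 158 with a 75th percentile shift and 162 when the brightest probe of a name was taken first. They became 39 with normexp background correction, 84 when every array had to be well above background, 105 at a limit of 1, and 154 to 252 with 1 array left out (252 without replicate 1 of T47D-PA5). The 20 members called between T47D-PA6 and T47D-VC1 became 9 with no filter on dim probes, 4 by the methods' t-test and 79 with replicates 2 and 3 only, a setting chosen after seeing the data, where 37.1% of all genes were called. Without 1 array they ranged from 7 to 28, with 13 and 7 without replicates 2 and 3 of T47D-VC1 and 8 and 7 without replicates 2 and 3 of T47D-PA6. The 39 members called in T47D-PA5 against both lines, where the rule fixes the direction, became 16 with no filter, 64 with slide as a block, 59 with the replicate block, 6 by the methods' t-test, 123 with replicates 2 and 3 only, and 15 to 62 without 1 array (18 without replicate 3 of T47D-VC1, 17 and 15 without replicates 2 and 3 of T47D-PA5, 62, 23 and 23 without replicates 1, 2 and 3 of T47D-PA6). With the replicate block the 20 became 27. The cause of these shifts was not tested. Among 12 named members called between T47D-PA6 and T47D-VC1, no difference changed sign. Their calls were kept 50 times and lost 10 times under the 75th percentile shift, normexp, the authors' table, slide as a block and the replicate block, and kept 69 times and lost 39 times with 1 array left out.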
